A study of Mus musculus with 6 samples.

Results

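The heat shock proteins and their J-domain (DNAJ) partners were read out from RNA-seq of MICT1 KO and Scr brown adipocytes. Every gene whose symbol begins with Hspa, Hspb, Hspd, Hspe or Hsph and a digit, with Hsp90, or with Dnaj was taken, which gave 63 of the 13283 genes with a value. From general knowledge of where their proteins act, 26 were placed in the cytosol, 11 in the endoplasmic reticulum (ER) and 10 in mitochondria, and 16 were left as acting elsewhere or at a place that is not sure. The cells were BAT cells, an immortalized mouse brown preadipocyte line that carried Cas9 in both groups. MICT1 KO cells were CRISPR knockout pools made with 2 sgRNAs against MICT1, a microprotein of brown adipocytes, and Scr cells received a scrambled sgRNA. Each group had 3 libraries, and all 6 came from cells differentiated for 6 days and exposed to 10 µM of forskolin for 6 h, a compound that raises cAMP through adenylyl cyclase. No library came from cells without forskolin, the labels do not say which knockout pool a library came from, and nothing says that the libraries were separate cultures, so p-values measure the spread between these libraries. The level of MICT1 itself was not analysed here.

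Chaperones keep proteins soluble and help them fold. Hsp70 proteins bind exposed hydrophobic stretches in cycles driven by ATP, J proteins bring them clients and stimulate their ATPase, and Hsp110 proteins exchange their nucleotide. Hsp90 proteins act on partly folded clients such as kinases and receptors, Hsp60 and Hsp10 form a folding chamber in the mitochondrial matrix, and small heat shock proteins hold unfolded proteins without ATP. Each compartment has its own set: cytosolic chaperones respond to heat shock factor 1, ER chaperones to the unfolded protein response, and mitochondrial Hsp70 also pulls newly made proteins across the inner membrane, which brown adipocytes, rich in mitochondria, depend on.

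The values were a normalized signal per gene, that is estimated reads divided by 1 scaling factor per library. Multiplied back by a factor inferred from the low values, the signal summed to about 15439225 to 17917922 estimated reads per library. These totals cover the genes with a value and are not the sequencing depth. Below, 3 values of a group follow replicates 1 to 3, tests are limma-trend on log2(signal + 1) with Benjamini-Hochberg adjustment over the 12507 genes tested, n is 3 libraries per group, and a gene was called at an adjusted p under 0.05. All 8 adipocyte genes that were listed, among them Adipoq, Fabp4 and Plin1, were lower in MICT1 KO, and their summed signal was 121605 to 144970 in Scr and 14516 to 20928 in MICT1 KO. Of 6 preadipocyte and fibroblast genes tested 3 were higher and 2 lower (summed signal of the 7 listed genes 36489.7 to 41758 in Scr and 49729.5 to 53503 in MICT1 KO). The difference in the sum came from Col1a1 (17281 to 18330 in Scr and 27994 to 32997 in MICT1 KO), and without it the groups overlapped. Higher were Col1a1, Pdgfrb and Ly6a. Lower were Dlk1 (log2 fold change -3.47, adjusted p = 1.52e-12) and Pdgfra (-0.19), whose call was lost without Scr replicate 1 or 2 or MICT1 KO replicate 1 or 2. Of the markers of other cell types, 4 of 8 macrophage genes had a value, 1 of them (Cd14) higher, with a summed signal of 267 to 384 in Scr and 516 to 638 in MICT1 KO. Of 6 endothelial genes 1 had a value, Cdh5, which was called higher (log2 fold change 1.71, adjusted p = 0.00275), at 5.93 to 12.1 in Scr and 25.9 to 33.4 in MICT1 KO. In muscle, 3 of 8 genes had a value, 0 of them called, and their sum stayed between 92.6 and 138. The remaining markers of these lists were not analysed here. Libraries of mixed cells do not tell fewer differentiated cells from less RNA per cell, and the part of differentiation in the chaperone values was not tested. Scr replicate 3 stood apart in genes of ER stress. Values without it are given for the named genes of that kind in which it was the lowest Scr library.

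Of the 63 chaperone genes 61 passed the filter on low signal, and 17 were higher and 17 lower in MICT1 KO. Among all genes tested, 28.5% were called higher and 28.3% lower (56.9% in either direction), so the chaperones as a whole were called about as often as any gene. Their changes were mostly small: 2 chaperones were called with at least a 2-fold rise (7.99% of all genes) and 0 with a 2-fold fall (5.76% of all genes). Under the rule of a 1.8-fold change with an unadjusted p under 0.05, 2 were higher (10.1% of all genes) and 3 lower (7.39%). The median log2 fold change was 0.039 over the chaperones and -0.0053 over all genes tested. All 3 MICT1 KO libraries lay above all 3 Scr libraries for 18 chaperones (30.9% of all genes) and below them for 20 (31.2% of all genes, and 62.0% in either direction). The direction was not the same in every compartment. In the cytosol 11 of 26 were higher and 3 lower (median log2 fold change 0.23), in the ER 3 of 11 were higher and 4 lower (median 0.053), and in mitochondria 0 of 10 were higher and 7 lower (median -0.39). The difference between these lists was not itself tested. Dnajc6 and Dnajc22 did not pass the filter: the signal of Dnajc6 was 0.989, 0.927 and 8.14 in Scr against 5.72, 3.16 and 3.11 in MICT1 KO, and that of Dnajc22 3.96, 4.63 and 6.11 in Scr against 11.4, 8.43 and 5.18 in MICT1 KO.

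**Figure D1:**
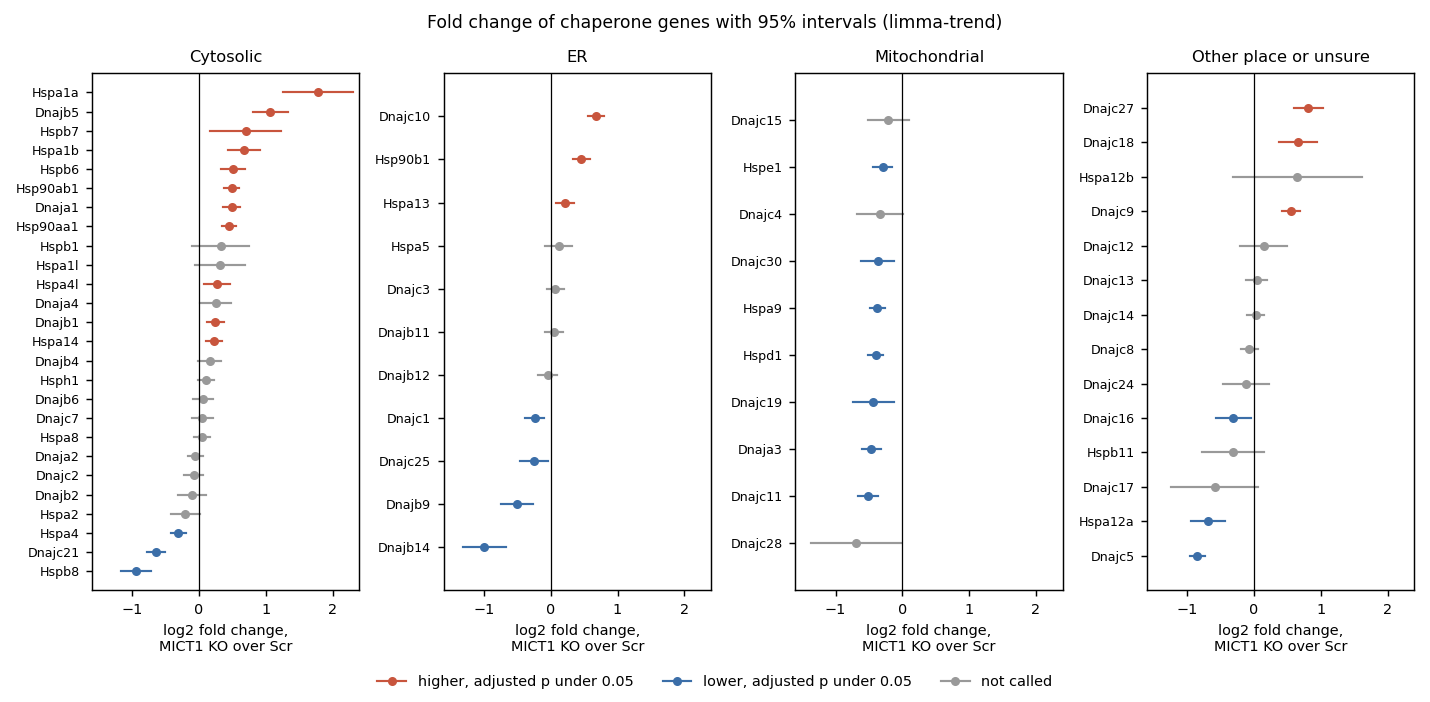
Log2 fold change (MICT1 KO over Scr) of the 61 chaperone genes tested, in 4 panels by place, with horizontal lines for the 95% interval (limma-trend, n = 3 libraries per group). Red and blue mark genes higher and lower at an adjusted p under 0.05 and grey the others. The mitochondrial panel has all 10 points left of 0, while the cytosolic panel has 11 red and 3 blue genes.

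Summed over its genes, the cytosolic signal was 104789 to 109556 in the Scr libraries and 122799 to 129996 in the MICT1 KO libraries. The separation came from Hsp90aa1 and Hsp90ab1, whose sum was 41559.7 to 43284 in Scr and 57838 to 60999.6 in MICT1 KO. The other 24 cytosolic genes summed to 63229 to 66484 in Scr and 64962 to 68997 in MICT1 KO, with overlapping groups. The mitochondrial sum was 40758 to 42540.0 in Scr and 30377 to 32337 in MICT1 KO, below every Scr library. ER genes summed to 57046, 58313 and 45909 in Scr and to 64634, 63452 and 61621 in MICT1 KO, the lowest value being that of Scr replicate 3. The separation of the ER sums rested on Hsp90b1 (17539 to 20677 in Scr and 26056 to 27799 in MICT1 KO), and without it the groups overlapped. Within the chaperone signal of a library, the mitochondrial genes took 18.3% to 20.04% in Scr and 13.2% to 13.9% in MICT1 KO, and the cytosolic genes 48.3% to 51.3% and 53.5% to 54.3%. Chaperones in all took 1.30% to 1.35% of the signal of a Scr library and 1.41% to 1.46% of that of a MICT1 KO library. This rise came from the 3 genes with an Hsp90 symbol, whose summed signal was 60823 to 63749 in Scr and 84414 to 88799 in MICT1 KO. Without them, the summed chaperone signal was lower in every MICT1 KO library than in every Scr library. As RPKM, the signal divided by the exon length and by the total of the library, 8 genes were at 100 or more in Scr, led by Hsp90ab1 (579 ± 9.83 RPKM, mean ± SD), Hspa8 (412 ± 8.15) and Hspd1 (383 ± 17.5), and 6 were under 1.

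**Figure D2:**
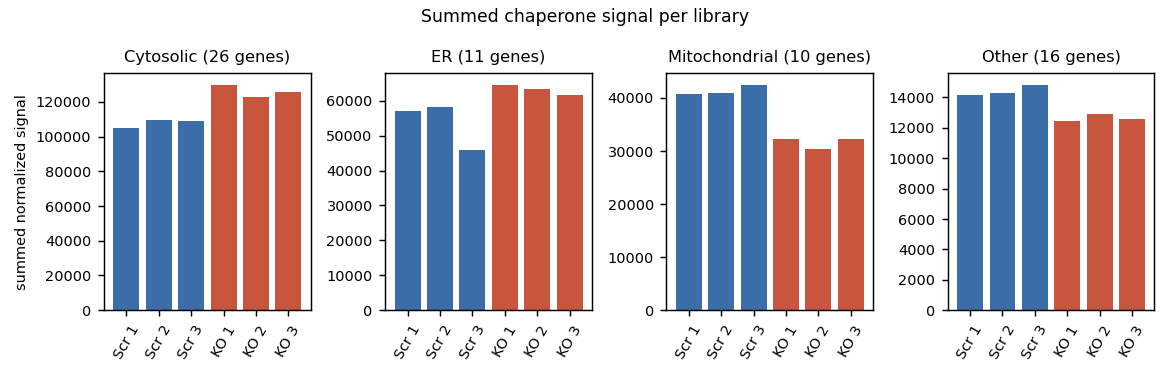
Summed normalized signal of the cytosolic, ER, mitochondrial and other chaperone genes, with 1 bar per library (blue, Scr; red, MICT1 KO) and axes from 0. The cytosolic bars are higher in all 3 MICT1 KO libraries, which rests on Hsp90aa1 and Hsp90ab1, and the mitochondrial bars are lower. The ER bars are higher in MICT1 KO, which rests on Hsp90b1, and the ER bar of Scr replicate 3 is the lowest of its panel.

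In the cytosol, both Hsp90 genes were higher in MICT1 KO. Hsp90ab1 (chromosome 17, 45567778 to 45573261 on GRCm38) encodes the constitutive Hsp90 beta, and its signal was 27520.5, 28767 and 28963 in Scr against 41527, 38702 and 39462 in MICT1 KO. Hsp90aa1 (chromosome 12, 110691036 to 110696395), the more stress-inducible Hsp90 alpha, had 14039, 14304 and 14322 in Scr against 19472, 19136 and 19462 in MICT1 KO. The replicates lay close together and the groups did not overlap for either gene. The rise was 1.4-fold for Hsp90ab1 (log2 fold change 0.49 ± 0.054 (SE), adjusted p = 1.38e-07) and 1.36-fold for Hsp90aa1 (log2 fold change 0.44 ± 0.050 (SE), adjusted p = 1.58e-07). On the RPKM scale Hsp90ab1 went from 579 ± 9.83 to 815 ± 25.2 and Hsp90aa1 from 221 ± 1.78 to 302 ± 2.81 (SD).

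The stress-inducible Hsp70 genes were higher as well, from a low level. Hspa1a (chromosome 17, 34969359 to 34972156) had a signal of 26.6, 35.2 and 40.6 in Scr against 134, 93.4 and 131 in MICT1 KO. Its neighbour Hspa1b (chromosome 17, 34956429 to 34959238), which encodes a nearly identical protein, had 255, 322 and 269 in Scr against 467, 429 and 447 in MICT1 KO. In both genes each MICT1 KO library was above each Scr library. The rise was 3.44-fold for Hspa1a (log2 fold change 1.78 ± 0.25 (SE), adjusted p = 4.67e-06), the largest of all 61 chaperones tested, and 1.59-fold for Hspa1b (log2 fold change 0.67 ± 0.11 (SE), adjusted p = 4.14e-05). Reads that match both copies could have been divided between them, and multiplying back by the scaling factor gave fractional reads for both, so the share of each copy is uncertain. Hspa8, the constitutive Hsc70 and by RPKM just below Hsp90ab1 in Scr, had 28609, 30016 and 28458 in Scr against 31927, 28472 and 29384 in MICT1 KO. Its groups overlapped, and the log2 fold change was 0.043 (95% interval -0.075 to 0.16, adjusted p = 0.540), and -0.0047 without MICT1 KO replicate 1.

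The rest of the cytosolic Hsp70 and Hsp110 genes moved in both directions. Hspa4, an Hsp110-type exchange factor, had 6165, 5908 and 6441 in Scr against 5103, 4861 and 4944 in MICT1 KO, with all MICT1 KO libraries lower (log2 fold change -0.31 ± 0.053 (SE), adjusted p = 4.29e-05). Hsph1, another exchange factor of this class, had 7029, 8049 and 7936 in Scr against 8135, 8231 and 8376 in MICT1 KO. Each MICT1 KO library was above each Scr library, but the 2 highest Scr libraries came close and the gene was not called (0.11, 95% interval -0.011 to 0.23, adjusted p = 0.115). Hspa14, a ribosome-associated Hsp70, was higher (0.22, adjusted p = 0.00330), as was Hspa4l (0.27, adjusted p = 0.0171), whose call was lost without Scr replicate 3 (adjusted p = 0.118) or MICT1 KO replicate 2 (adjusted p = 0.0810). Hspa2 (-0.20, adjusted p = 0.114) and Hspa1l (0.32, adjusted p = 0.143) were not called. In all, of the 9 cytosolic Hsp70 and Hsp110 genes 4 were higher and 1 lower (28.5% and 28.3% of all genes tested).

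Small heat shock proteins did not share 1 direction. Hspb8, which works with the co-chaperone Bag3 in the disposal of misfolded proteins, had 701, 661 and 704 in Scr against 408, 374 and 302 in MICT1 KO. Each MICT1 KO library was below each Scr library, a 1.92-fold fall (log2 fold change -0.94 ± 0.11 (SE), adjusted p = 2.22e-07). Hspb6, also called Hsp20 and a known target of cAMP-dependent kinase as a protein, had 710.2, 786 and 834 in Scr against 1216, 975 and 1132 in MICT1 KO, higher in every MICT1 KO library (log2 fold change 0.51 ± 0.088 (SE), adjusted p = 4.62e-05). Hspb7, a small heat shock protein best known from heart muscle, was low in all libraries, with 38.6, 42.6 and 43.8 in Scr against 77.2, 57.9 and 70.5 in MICT1 KO. It was called higher (log2 fold change 0.70 ± 0.26 (SE), adjusted p = 0.0256), but the call was lost without MICT1 KO replicate 1 (adjusted p = 0.0947), MICT1 KO replicate 3 (0.0649) or Scr replicate 1 (0.0654). Hspb1 (Hsp25), which also binds actin filaments, had 81.1, 109 and 77.3 in Scr against 98.2, 113 and 122 in MICT1 KO. Its groups overlapped and it was not called (0.32, 95% interval -0.10 to 0.75, adjusted p = 0.187).

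Cytosolic J proteins numbered 11, of which 3 were higher and 1 lower (28.5% and 28.3% of all genes tested). Dnajb5 (chromosome 4, 42949867 to 42959425), a relative of the heat-inducible Dnajb1, had 172, 159 and 182 in Scr against 348, 382 and 348 in MICT1 KO. The MICT1 KO libraries were all well above the Scr libraries, a 2.09-fold rise (log2 fold change 1.07 ± 0.13 (SE), adjusted p = 3.90e-07), and Dnajb5 and Hspa1a were the 2 chaperones with a called rise of at least 2-fold. Dnaja1, a farnesylated partner of Hspa8, had 1902, 2019 and 1914 in Scr against 2801, 2732 and 2644 in MICT1 KO, without overlap (log2 fold change 0.49 ± 0.058 (SE), adjusted p = 4.20e-07). Dnajb1 (Hsp40), the classical heat-inducible partner of Hsp70, had 1929.7, 2169 and 2039 in Scr against 2358, 2424 and 2459.8 in MICT1 KO, also without overlap (log2 fold change 0.24 ± 0.061 (SE), adjusted p = 0.00214). Dnajc21, a J protein that takes part in the maturation of the large ribosomal subunit, had 1733, 1807 and 1835 in Scr against 1094, 1180.1 and 1153 in MICT1 KO and fell by 0.65 on the log2 scale (SE 0.065, adjusted p = 2.91e-08). The other 7 were not called: Dnaja2, Dnaja4, Dnajb2, Dnajb4, Dnajb6, Dnajc2 and Dnajc7 had log2 fold changes between -0.11 (Dnajb2) and 0.25 (Dnaja4). Of these, Dnaja4 was called without MICT1 KO replicate 1 (0.34, adjusted p = 0.0153) and Dnajb4 without Scr replicate 3 (0.25, adjusted p = 0.0132).

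The partners of the cytosolic chaperones, which are not members of the symbol families, moved both ways as well. Of 20 co-chaperones tested 6 were higher and 5 lower (median log2 fold change -0.028). The share called was 55%, near the 56.9% of all genes tested. The largest rise was that of Cryab, the small heat shock protein alpha B-crystallin, with 60.3, 59.3 and 70.2 in Scr against 264, 241 and 215 in MICT1 KO (log2 fold change 1.91 ± 0.18 (SE), adjusted p = 1.03e-08), and the largest fall that of St13, the Hsp70-interacting protein Hip (-0.42, adjusted p = 6.08e-06). Bag3, the partner of Hspb8, was lower (-0.33, adjusted p = 0.000205), while Stip1, the Hop adaptor between Hsp70 and Hsp90, was higher (0.19, adjusted p = 0.00498). The cytosolic chaperonin TRiC, which folds actin and tubulin, had 1 of 8 subunits higher and 3 lower (median -0.066, 50% called against 56.9% of all genes tested). Among these, Cct5 fell most (-0.51, adjusted p = 8.60e-08) and Cct6a was the subunit called higher (0.13, adjusted p = 0.0453), a call lost without Scr replicate 1 or 2 or MICT1 KO replicate 1 or 3 (adjusted p = 0.0778 to 0.166). Hsf1, the main factor of the heat shock response, had 639.9, 659 and 612 in Scr against 698, 730.2 and 766 in MICT1 KO, a small rise (log2 fold change 0.20 ± 0.082 (SE), adjusted p = 0.0447) whose call was lost when any library but MICT1 KO replicate 1 was left out (adjusted p = 0.0591 to 0.155). Hsf2 was lower, with 788, 757 and 878 in Scr against 571, 633 and 580.5 in MICT1 KO (log2 fold change -0.44 ± 0.086 (SE), adjusted p = 0.000191), and Hsf4 was not called (0.11, adjusted p = 0.773). Bag3, Stip1 and the other partners named here beyond the largest rise and fall of a list were chosen after their values were seen.

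Among genes of ER folding and the unfolded protein response 1 control library differed from the others, and among the ER chaperones it did so for single genes. Scr replicate 3 had the lowest signal of the 3 Scr libraries for 34.6% of all genes tested, but for 8 of 9 sensors and factors of the unfolded protein response (88.9%), for 11 of 17 ER folding and quality control genes (64.7%) and for 5 of 11 ER chaperones (45.5%). Its log2 signal minus that of the other Scr libraries was -0.58 for Hspa5, -0.54 for Dnajb9, -1.13 for Herpud1 and -0.77 for Ddit3, against a median of 0.0059 over all genes. The median was -0.27 for the sensors and factors and -0.20 for the ER folding genes. For the 11 ER chaperones it was -0.012, close to that of all genes. In cytosolic chaperones Scr replicate 3 was the lowest for 15.4% and in mitochondrial chaperones for 10.0%.

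The ER chaperones that make up the folding machinery of secreted and membrane proteins split by gene, with 3 higher, 4 lower and 4 not called. Without Scr replicate 3, 3 were higher and 3 lower. With all libraries 63.6% of them were called, near the 56.9% of all genes tested (28.5% higher and 28.3% lower). Hsp90b1 (chromosome 10, 86690841 to 86705444 on GRCm38), the ER Hsp90 known as Grp94, had 20570.1, 20677 and 17539 in Scr against 27799, 26577 and 26056 in MICT1 KO. The lowest MICT1 KO library was above the highest Scr library, a 1.37-fold rise (log2 fold change 0.46 ± 0.062 (SE), adjusted p = 2.50e-06), and without Scr replicate 3 the log2 fold change was 0.38, adjusted p = 2.01e-05. Dnajc10 (chromosome 2, 80315446 to 80354055), also called ERdj5, a J protein that reduces disulfide bonds of misfolded proteins, had 1991, 2146 and 2059 in Scr against 3279.6, 3476 and 3161 in MICT1 KO, the largest rise of the ER chaperones at 1.6-fold (log2 fold change 0.68 ± 0.059 (SE), adjusted p = 3.85e-09). Hspa13, an Hsp70 of the microsomes, was also higher, with 1327, 1274 and 1289 in Scr against 1477, 1472 and 1559 in MICT1 KO (log2 fold change 0.21 ± 0.064 (SE), adjusted p = 0.00800). Hspa5 (chromosome 2, 34772090 to 34776529), the ER Hsp70 known as BiP and the best-known target of the unfolded protein response, had 23292, 24687 and 16046 in Scr against 23228, 22959 and 22062 in MICT1 KO. The low value of Scr replicate 3 set it apart, the MICT1 KO libraries lay below the other Scr libraries, and the gene was not called (log2 fold change 0.12 ± 0.10 (SE), adjusted p = 0.336, 95% interval -0.092 to 0.33). Without Scr replicate 3 its direction turned (-0.076, adjusted p = 0.299).

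Of the 8 J proteins placed in the ER, 1 was higher and 4 were lower (28.5% and 28.3% of all genes tested). J proteins of the ER bring clients to BiP or to the degradation machinery. Dnajb9 (ERdj4), an inducible BiP partner that also holds the stress sensor Ire1 in check, had 1249, 1173 and 831 in Scr against 819, 674 and 764 in MICT1 KO. Each MICT1 KO library was below each Scr library, the closest being Scr replicate 3 (log2 fold change -0.51 ± 0.11 (SE), adjusted p = 0.000716), and without that library the log2 fold change was -0.69, adjusted p = 2.48e-06. Dnajb14, a membrane J protein that faces the cytosol, had 266, 279.9 and 327 in Scr against 162, 156 and 121 in MICT1 KO, a 1.99-fold fall (log2 fold change -0.99 ± 0.15 (SE), adjusted p = 1.07e-05). Its close relative Dnajb12 had 1749, 1517 and 1771 in Scr against 1645, 1673 and 1552 in MICT1 KO, with overlapping groups (-0.046, 95% interval -0.19 to 0.10, adjusted p = 0.597). Dnajc1, a membrane J protein, was at 1229, 1205 and 1209 in Scr against 1027, 1027 and 1031 in MICT1 KO (log2 fold change -0.24 ± 0.067 (SE), adjusted p = 0.00446). Dnajc25, also a membrane protein, had 457, 505 and 482 in Scr against 376, 405 and 441 in MICT1 KO (log2 fold change -0.24 ± 0.10 (SE), adjusted p = 0.0446). The call of Dnajc25 was lost without Scr replicate 2 (adjusted p = 0.1498), Scr replicate 3 (0.0843), MICT1 KO replicate 1 (0.151) or MICT1 KO replicate 2 (0.0807). Dnajb11 (ERdj3), the soluble BiP partner for newly made proteins, had 1714, 1711 and 1565 in Scr against 1750.3, 1715 and 1706 in MICT1 KO (0.053, 95% interval -0.078 to 0.18, adjusted p = 0.495). Dnajc3 (p58IPK), an inhibitor of eIF2 alpha kinases and BiP partner, had 3201, 3136 and 2791 in Scr against 3071, 3318 and 3168 in MICT1 KO (0.068, 95% interval -0.060 to 0.20, adjusted p = 0.363). Both overlapped between the groups. Without Scr replicate 3, the lowest Scr library for both, the log2 fold changes were 0.0094 for Dnajb11 and 0.0071 for Dnajc3.

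**Figure D3:**
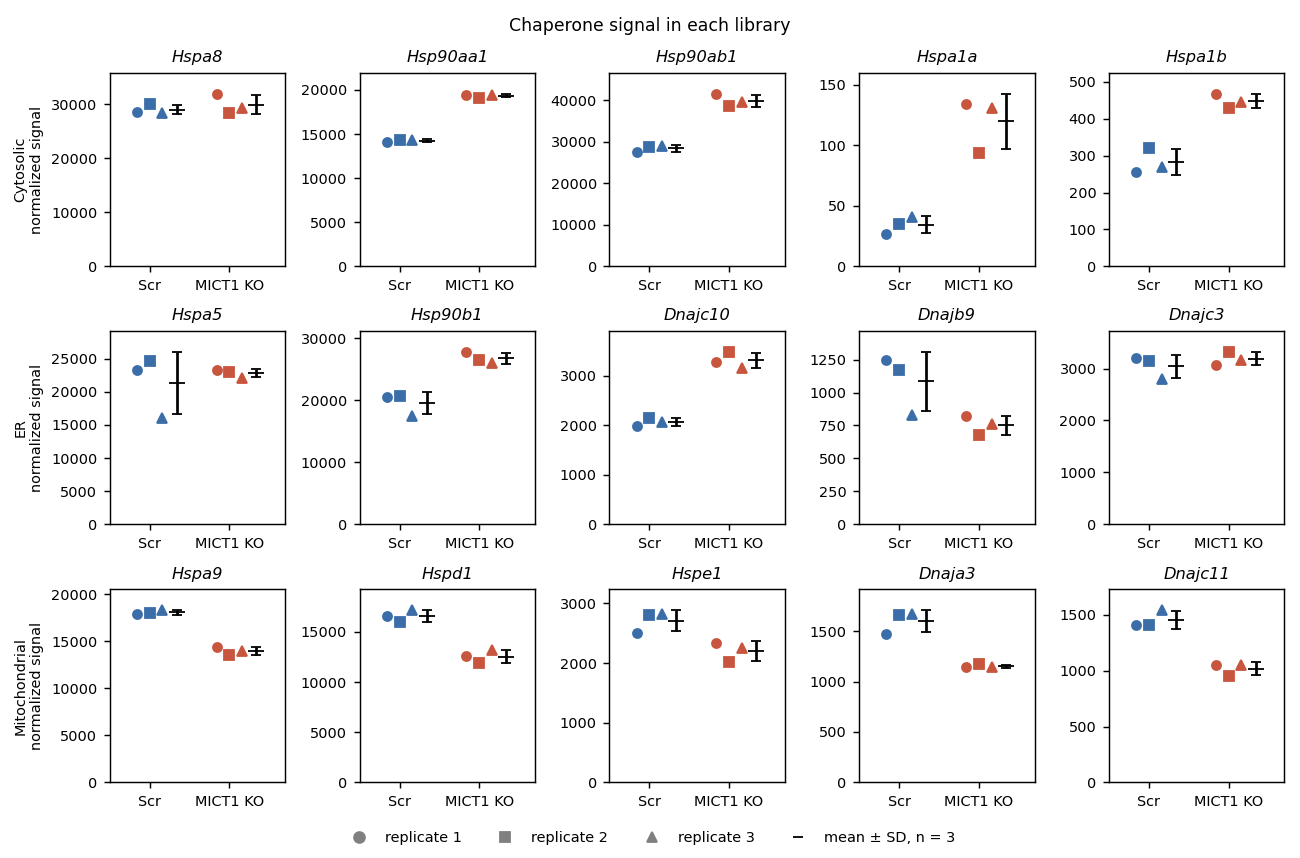
Normalized signal of 5 cytosolic, 5 ER and 5 mitochondrial chaperones in each library (circle, square and triangle, replicates 1 to 3; blue, Scr; red, MICT1 KO), with the mean ± SD of n = 3 in black and axes from 0. Hsp90aa1, Hsp90ab1, Hspa1a, Hspa1b, Hsp90b1 and Dnajc10 are higher in MICT1 KO and the 5 mitochondrial genes lower, and the triangle of Scr lies low for Hspa5 and Dnajb9.

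Promoters were examined because several ER chaperones are textbook targets of ATF6, which binds the ER stress response element. RefSeq promoter windows on GRCm38.p6, from 250 bases before to 50 bases after each start, were found for 51 of the 63 chaperones. The element was searched on both strands as CCAAT and CCACG exactly 9 bases apart, and was found in 0.137% of the 27025 genes with a window (0.151% of the 10578 of them with a value here) and in 3 chaperones: Hspa5, Hsp90b1 and Dnajc3. Of the ER folding partners it was found in Calr, Canx, Pdia6, Creld2 and Syvn1. The sites are shown 5′ to 3′ along the element, with CCAAT and CCACG in capitals, so that genes with the same letters can be set beside their values:
Hspa5 (chr2:34772020-34772048, plus strand): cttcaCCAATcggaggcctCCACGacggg
Hsp90b1, first site (chr10:86705528-86705556, plus strand): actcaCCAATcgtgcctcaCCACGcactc
Hsp90b1, second site (chr10:86705633-86705661, minus strand): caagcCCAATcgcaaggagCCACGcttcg
Dnajc3 (chr14:118937822-118937850, plus strand): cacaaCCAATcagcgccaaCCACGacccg
Calr (chr8:84847070-84847098, plus strand): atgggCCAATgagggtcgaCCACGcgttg
Canx (chr11:50325795-50325823, minus strand): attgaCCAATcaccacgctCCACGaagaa
Pdia6 (chr12:17266486-17266514, plus strand): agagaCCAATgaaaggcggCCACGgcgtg
Creld2 (chr15:88819515-88819543, minus strand): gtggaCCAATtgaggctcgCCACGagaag
Syvn1 (chr19:6046527-6046555, plus strand): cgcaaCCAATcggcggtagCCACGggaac

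The element began 65 bases before the start of Hspa5, 107 and 212 bases before that of Hsp90b1 and 105 bases before that of Dnajc3, counted along each gene. Of these chaperones with the same letters, Hsp90b1 was higher (0.46) and Hspa5 (0.12) and Dnajc3 (0.068) were not called. Of the partners, Calr (0.90), Pdia6 (0.30) and Canx (0.14) were higher, Creld2 (-0.054) was not called and Syvn1 (-0.54) was lower. Without Scr replicate 3 the log2 fold changes were 0.38 for Hsp90b1, -0.076 for Hspa5 and 0.0071 for Dnajc3. For the partners they were 0.83 for Calr, 0.24 for Pdia6, 0.15 for Canx, -0.16 for Creld2 and -0.69 for Syvn1. All of these calls stayed the same. A match describes letters and says nothing of whether a factor was bound. The cAMP response element TGACGTCA, searched because forskolin raises cAMP in both groups, was found in 2.03% of the genes with a window (3.51% of the 10578 of them with a value here) and in 1 of the 51 chaperones, Dnajc27, which was higher. Of the partners it was found in Ppp1r15a, higher, and Trap1, not called.

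The ER folding genes outside the symbol families also split, with 6 of 17 higher and 3 lower (median log2 fold change 0.044), and without Scr replicate 3 also 6 and 3 (median -0.0071). With all libraries 52.9% of them were called, near the 56.9% of all genes tested. Calr, the lectin chaperone calreticulin, had 9043, 9594 and 7999 in Scr against 17488, 16688 and 15593 in MICT1 KO and rose most (log2 fold change 0.90 ± 0.064 (SE), adjusted p = 1.24e-10). The 4 protein disulfide isomerases on the list were higher too: Pdia3 (0.63, adjusted p = 6.64e-09), P4hb (0.46, adjusted p = 5.67e-07), Pdia4 (0.38, adjusted p = 0.00115) and Pdia6 (0.30, adjusted p = 0.000251), with Pdia4 at 0.23, adjusted p = 0.00672 without Scr replicate 3. Canx, the membrane lectin calnexin, was higher by little (0.14, adjusted p = 0.0225), a call lost without MICT1 KO replicate 2 (adjusted p = 0.0625) or without MICT1 KO replicate 3 (adjusted p = 0.0846) or without Scr replicate 1 (adjusted p = 0.0898). The 3 genes that fell were Derl1, a membrane component of the exit channel of ER-associated degradation, with 3458, 3365 and 3543 in Scr against 1881, 1754 and 1754 in MICT1 KO (log2 fold change -0.94 ± 0.058 (SE), adjusted p = 1.32e-11), the ubiquitin ligase Syvn1 (-0.54, adjusted p = 0.000137) and its partner Herpud1, while Edem1 (0.072, adjusted p = 0.347), Sel1l (-0.10, adjusted p = 0.130) and Derl2 (-0.037, adjusted p = 0.731), also known from that pathway, were not called. Herpud1 had 1463, 1519 and 682 in Scr against 816, 681 and 742 in MICT1 KO, with Scr replicate 3 inside the MICT1 KO range, and a log2 fold change of -0.63, adjusted p = 0.00664, or -1.001, adjusted p = 6.97e-09 without that library, and the call was lost without Scr replicate 1 (adjusted p = 0.0633) or without Scr replicate 2 (adjusted p = 0.0775). Of the 9 sensors and factors of the unfolded protein response 5 were higher and 1 lower (median 0.17). That is 66.7% called, against 56.9% of all genes tested. Without Scr replicate 3 the counts became 2 higher and 2 lower (median 0.079). Xbp1, the transcription factor activated by Ire1, had 4073, 3793 and 3109.8 in Scr against 1789, 1706 and 1699.9 in MICT1 KO, without overlap (log2 fold change -1.07 ± 0.076 (SE), adjusted p = 1.58e-10). The signal does not tell its spliced from its unspliced mRNA. Ppp1r15a (Gadd34), which ends the eIF2 alpha response, had 1762, 2204 and 1612 in Scr against 3919, 3643 and 3671 in MICT1 KO, all higher in MICT1 KO (log2 fold change 1.02 ± 0.082 (SE), adjusted p = 1.08e-09). Ddit3 (Chop) was called higher (0.41, adjusted p = 0.0214) but not without Scr replicate 3 (0.15, adjusted p = 0.208) or MICT1 KO replicate 1 (adjusted p = 0.0700). Without Scr replicate 3, the lowest Scr library for each, the log2 fold changes were 0.83 for Calr, 0.57 for Pdia3, 0.24 for Pdia6 and -0.69 for Syvn1. They were -1.18 for Xbp1, 0.93 for Ppp1r15a, -0.16 for Creld2 and 0.0085 for Edem1, and the calls of these genes stayed the same. Apart from Calr, Derl1, Xbp1 and Ppp1r15a these partner genes were chosen after their values were seen.

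**Figure D4:**
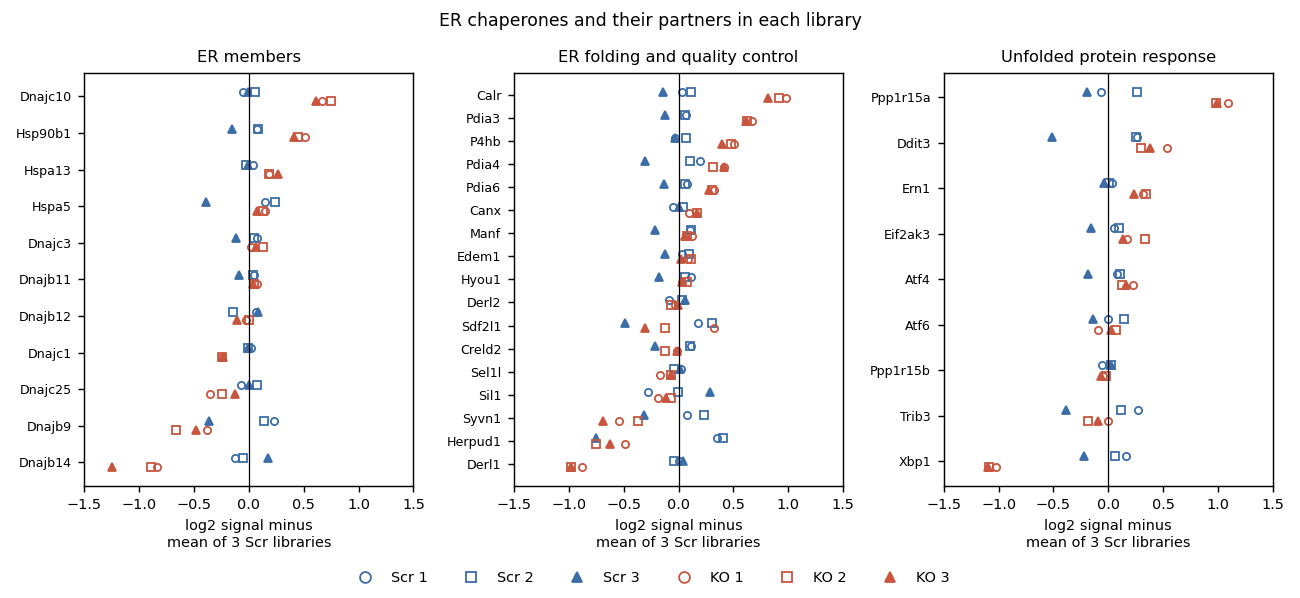
Log2 signal of each library minus the mean of the 3 Scr libraries for ER chaperones, other ER folding genes and genes of the unfolded protein response (blue, Scr; red, MICT1 KO; circles, squares and filled triangles, replicates 1 to 3). The filled blue triangle, Scr replicate 3, is the lowest Scr library for 5 of 11, 11 of 17 and 8 of 9 genes, and Calr, Hsp90b1 and Dnajc10 lie to the right and Xbp1, Derl1 and Dnajb14 to the left in all MICT1 KO libraries.

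Mitochondrial chaperones were lower in MICT1 KO, with 7 of 10 called lower (28.3% of all genes tested), 0 higher (28.5% of all genes tested) and 3 not called. All 10 had a log2 fold change below 0, from -0.69 to -0.21, and for 9 of 10 each MICT1 KO library was below each Scr library (31.2% of all genes). Hspd1 (chromosome 1, 55077833 to 55088243 on GRCm38), the Hsp60 of the matrix folding chamber, had 16538, 15945 and 17173 in Scr against 12586, 11892 and 13149 in MICT1 KO. Its lid Hspe1 (chromosome 1, 55088148 to 55091317), the Hsp10, had 2503, 2807 and 2816 in Scr against 2339.5, 2022 and 2259.7 in MICT1 KO. The groups did not overlap for either gene, and the fall was 1.32-fold for Hspd1 (log2 fold change -0.40 ± 0.054 (SE), adjusted p = 2.35e-06) and 1.23-fold for Hspe1 (log2 fold change -0.30 ± 0.067 (SE), adjusted p = 0.000779). Hspa9, or mortalin, the Hsp70 of the matrix and motor of protein import, had 17844, 18050.3 and 18308 in Scr against 14379.5, 13560.1 and 13948 in MICT1 KO. It was lower in every MICT1 KO library by 1.29-fold (log2 fold change -0.37 ± 0.051 (SE), adjusted p = 2.50e-06). On the RPKM scale Hspd1 went from 383 ± 17.5 to 291 ± 14.9 and Hspe1 from 112 ± 5.93 to 91.7 ± 6.55 (mean ± SD).

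The J proteins of mitochondria were 7, of which 4 were lower and 0 higher (28.3% and 28.5% of all genes tested). Dnaja3 (Tid1), the matrix partner of Hspa9 in folding, had 1472, 1656 and 1667 in Scr against 1143, 1171 and 1146 in MICT1 KO, without overlap (log2 fold change -0.47 ± 0.068 (SE), adjusted p = 6.14e-06). Dnajc11, which sits at the outer membrane with the complex that shapes cristae, had 1408, 1405 and 1543 in Scr against 1049.7, 951 and 1053 in MICT1 KO and was the largest called fall of the compartment (log2 fold change -0.51 ± 0.071 (SE), adjusted p = 3.27e-06). Dnajc19, a J protein of the import motor, had 258, 227 and 275 in Scr against 166, 177 and 222 in MICT1 KO (log2 fold change -0.43 ± 0.15 (SE), adjusted p = 0.0160). Its call was lost without Scr replicate 3 (adjusted p = 0.0682) or MICT1 KO replicate 1 (0.0659). Dnajc30 was lower as well (-0.37, adjusted p = 0.0101), a call lost without Scr replicate 2 (adjusted p = 0.0587). Not called were Dnajc15, a relative of Dnajc19 in the import motor (-0.21, adjusted p = 0.238), Dnajc4 (-0.33, adjusted p = 0.0966) and Dnajc28, the 1 gene of the 10 with overlapping groups. Dnajc28 had 56.4, 51.9 and 62.1 in Scr against 31.5, 57.9 and 22.8 in MICT1 KO (-0.69, adjusted p = 0.0740), and was called without MICT1 KO replicate 2 (-1.05, adjusted p = 0.0108). Without Scr replicate 3, 6 of the 10 mitochondrial chaperones were called lower, as without Scr replicate 2 or MICT1 KO replicate 1.

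Hspd1 and Hspe1 stand head to head and share a promoter, which is shown because both genes fell. A heat shock element was searched on both strands as GAA, TTC and GAA units (or TTC, GAA and TTC), each 2 bases apart, and was found in 0.662% of the 27025 genes with a window (0.558% of those with a value here) and in 4 of 51 chaperones. Of the partners it was found in Chordc1, which was not called. In each site below, the GAA and TTC units are in capitals, and the shared site holds 4 units, which is 2 overlapping matches:
Hspd1 and Hspe1 (chr1:55088053-55088082, plus strand): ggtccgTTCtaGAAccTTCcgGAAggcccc
Dnajb6 (chr5:29735846-29735870, plus strand): ctccgaGAAtcTTCcgGAAcgctag
Hsph1 (chr5:149636282-149636306, minus strand): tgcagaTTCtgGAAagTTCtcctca

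The shared site began 89 bases before the start of Hspe1 and 144 bases before a start of Hspd1, that of Dnajb6 46 bases before a start, and that of Hsph1 15 bases after a start. So of the 4 chaperones with these letters Hspd1 (-0.40) and Hspe1 (-0.30) were lower, and Dnajb6 (0.059) and Hsph1 (0.11) were not called. Windows were not matched for Hsp90aa1, Hsp90ab1 and Hspa8, and no 3-unit match was found within the windows of Hspa1a, Hspa1b and Dnajb1.

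Among 15 other mitochondrial proteins of protein import, folding and quality control, 8 were lower and 2 higher (median log2 fold change -0.34), against 28.3% and 28.5% of all genes tested. Grpel1, the nucleotide exchange factor of Hspa9, had 2277, 2223 and 2392 in Scr against 1524, 1273 and 1229 in MICT1 KO (log2 fold change -0.78 ± 0.074 (SE), adjusted p = 1.39e-08). The matrix protease Lonp1 was lower (-0.60, adjusted p = 2.76e-09), as was Clpx, the unfoldase of the Clp protease (-0.62, adjusted p = 2.45e-07), and Clpb, a disaggregase (-0.90, adjusted p = 1.15e-08). The largest fall was that of Pam16, which regulates the import motor, at a low level, with 47.5, 51.9 and 75.3 in Scr against 31.5, 17.9 and 24.9 in MICT1 KO (log2 fold change -1.21 ± 0.32 (SE), adjusted p = 0.00331). Spg7 and Afg3l2, which form the m-AAA protease together, went in opposite directions: Spg7 had 700.3, 625 and 622 in Scr against 1087, 1026 and 1128 in MICT1 KO (0.74, adjusted p = 9.51e-08) and Afg3l2 had 2196, 2249.8 and 2253 in Scr against 1326, 1222 and 1354 in MICT1 KO (-0.78, adjusted p = 1.15e-09). Trap1, the mitochondrial Hsp90, was not called with all libraries (-0.16, adjusted p = 0.114). Leaving out 1 library at a time, its log2 fold change ran from -0.24 to -0.096, with a lowest adjusted p of 0.0340, a call as lower. Apart from Pam16 and Spg7, these partners were chosen after their values were seen.

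The 16 chaperone genes left in no compartment list had 3 higher and 3 lower of 14 tested, 42.9% called against 56.9% of all genes tested. Dnajc5, the cysteine string protein that guards the fusion machinery of secretory vesicles, had 5764, 6032 and 6309 in Scr against 3243, 3387 and 3411 in MICT1 KO. This was a 1.8-fold fall without overlap (log2 fold change -0.85 ± 0.055 (SE), adjusted p = 2.86e-11), with the lowest adjusted p of all the chaperones. Hspa12a, a distant Hsp70 relative, had 468, 423 and 350.0 in Scr against 273, 247 and 246 in MICT1 KO, also lower in every MICT1 KO library (log2 fold change -0.69 ± 0.12 (SE), adjusted p = 7.47e-05). Dnajc16 had 294, 294 and 371 in Scr against 258, 247 and 262 in MICT1 KO (log2 fold change -0.31 ± 0.13 (SE), adjusted p = 0.0403), and its call was lost without Scr replicate 3 (adjusted p = 0.225) or any 1 MICT1 KO library (adjusted p = 0.0600 to 0.0959). Dnajc27, a J protein with a Rab-like GTPase domain, had 363, 340.2 and 305 in Scr against 539.6, 597 and 631 in MICT1 KO (log2 fold change 0.81 ± 0.10 (SE), adjusted p = 1.15e-06). Dnajc18 had 188, 181 and 176 in Scr against 277, 329 and 261 in MICT1 KO (log2 fold change 0.66 ± 0.14 (SE), adjusted p = 0.000302). Dnajc9, a nuclear J protein and histone chaperone, had 1667, 1598 and 1829 in Scr against 2636, 2388 and 2443 in MICT1 KO (log2 fold change 0.55 ± 0.065 (SE), adjusted p = 3.67e-07). The 3 genes were each higher in every MICT1 KO library. The 8 that were not called had log2 fold changes from -0.59 (Dnajc17) to 0.65 (Hspa12b), and among them were Dnajc13, which coats early endosomes (95% interval -0.12 to 0.20), and the spliceosome-associated Dnajc8 (95% interval -0.20 to 0.063). Dnajc17 was called lower without Scr replicate 3 (-0.83, adjusted p = 0.0425).

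Sorted by family instead of place, the 3 genes with an Hsp90 symbol, of the cytosol and the ER, were higher. Their mitochondrial relative Trap1, outside the symbol rule, was not called with all libraries (-0.16, adjusted p = 0.114). The summed signal of the 3 genes was 60823 to 63749 in Scr and 84414 to 88799 in MICT1 KO. Both Hsp60 and Hsp10 genes were lower. Of 14 Hsp70 and Hsp110 genes 5 were higher and 3 lower, and of 5 genes with an Hspb symbol 2 were higher and 1 lower. These 5 include Hspb11, which was not placed in the cytosol, and leave out Cryab, which is outside the symbol rule. Of 37 J proteins tested 7 were higher and 11 lower, with 1 of 4 DNAJA genes higher and 1 lower, 2 of 9 DNAJB genes higher and 2 lower, and 4 of 24 DNAJC genes higher and 8 lower. In either direction 57.1% of the Hsp70 and Hsp110 genes, 60% of the genes with an Hspb symbol and 48.6% of the J proteins were called. Over all genes tested the share was 56.9%, so these 3 families were called about as often as any gene. The summed signal of J proteins was 45806 to 47619.7 in Scr and 45205 to 45680.0 in MICT1 KO, a narrow gap beside that of Hsp90. This gap came from Dnajc5 (5764 to 6309 in Scr and 3243 to 3411 in MICT1 KO). Without that gene the direction turned, and the sum was higher in every MICT1 KO library than in every Scr library. Of the 34 chaperones called, 28 kept their call whichever 1 library was left out, the others being Dnajc16, Dnajc19, Dnajc25, Dnajc30, Hspa4l and Hspb7.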

How the data were processed

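RNA-seq values of 6 libraries were used, 3 Scr and 3 MICT1 KO, each assigned by its sample label. The study's methods give stranded total RNA libraries, paired-end sequencing and alignment to NCBI38/mm10 with Partek, and the submitters' processing notes name STAR as well. The deposited values are a normalized signal, read from their steps as estimated reads divided by 1 size factor per library (0.949 to 1.08), since 88.8% to 90.3% of values under 20 came out whole within 0.01. The counting model and strand setting are not given in the sources used here.

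Because the signal is not raw counts, limma-trend (limma 3.58.1, R 4.3.3) was fitted on log2(signal + 1) for the 12507 genes with a signal of at least 10 in at least 3 libraries, with Benjamini-Hochberg adjustment over all of them, in place of the count test foreseen if counts were found. Fold changes are on that log2 scale, which understates low genes. The fit was tested on simulated data.

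The chaperones, the compartment and partner lists and the rule for named genes (the defining chaperones, the 5 largest called rises and falls of each place, genes under the filter, and the largest rise and fall of each partner list) were chosen with earlier results of these data known. RPKM used exon lengths of GENCODE vM21, positions came from RefSeq on GRCm38, and figures were drawn with matplotlib 3.10.9. The replicate numbers were checked for pairing. Alternatives were other scalings, filters, pseudocounts, limma-voom, a fold rule, a replicate block and leaving out each library.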

Additional observations from a re-analysis of the deposited data

How the results depend on the processing

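Counts by direction and medians for the chaperones and their 3 compartments held under other scalings, filters, pseudocounts and limma-voom, which moved no count by more than 1 gene. With at least a 1.8-fold change and an unadjusted p under 0.05 in place of the adjusted p, 2 chaperones were higher and 3 lower (10.1% and 7.39% of all genes), with 2 higher and 1 lower in the cytosol, 0 higher and 1 lower in the ER and 0 lower in mitochondria. Leaving out 1 library at a time, the median log2 fold change ran from 0.0025 to 0.036 over all chaperones and from -0.0057 (without Scr replicate 3) to 0.075 over ER chaperones, that of Hspa5 from -0.076 (without Scr replicate 3) to 0.23, and that of Hspa8 from -0.0047 (without MICT1 KO replicate 1) to 0.078. The cause was not tested. Dnajc25 was also not called with scaling by library size (adjusted p = 0.05002).

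The replicate numbers did not pair the libraries: deviations of same-numbered libraries correlated at -0.024, -0.015 and 0.064. With the replicate block, 17 chaperones were higher and 17 lower, as without it, and of the genes named Cct6a (adjusted p = 0.0557) and Hsf1 (adjusted p = 0.0570) lost their call. Count tests were not run because the values are not counts. No limit of detection was computed, and Dnajc6 and Dnajc22 were below the filter on low signal.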
